A study of Mus musculus with 6 samples.

Results

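The core splicing proteins described here were 36 genes, taken by symbol from a table of 24346 gene symbols in each of 6 samples. They fell into 13 Lsm genes, 13 Snrp genes that encode Sm proteins and proteins of the U1 and U2 particles (called Sm genes here), and 10 U2 genes that encode SF3a, SF3b and U2AF subunits. RNA was sequenced from the colorectal tumor line CT26.mMR1, which is mouse CT26 with a retroviral mouse MR1 gene (parental, sample names CT26_cl9), and in its mutant M8 (CT26_cl9_M8), with 3 replicates of each line. M8 came from parental cells treated with the mutagen N-ethyl-N-nitrosourea (ENU) and was picked for a higher response of reporter T cells and for more MR1 on the cell surface. Both lines therefore carried the MR1 transgene, and they differed in the mutagen treatment and the selection that followed. M8 is 1 clone, so an effect of its mutations and ordinary variation between clones cannot be told apart. The study calls the replicates of its expression comparison biological, and no label says whether they were separate cultures, so the error given below covers the spread between these samples only, which may be technical. The genes were chosen with the difference between the 2 lines already known. Their differences are therefore given as descriptions, with a log2 fold change and its standard error (SE) and without a p-value.

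In splicing, each of the U1, U2, U4 and U5 small nuclear RNAs is held in a ring of Sm proteins (B, D1, D2, D3, E, F and G). The related Lsm proteins make a nuclear ring with Lsm8 that binds U6 RNA and a cytoplasmic ring with Lsm1 that takes part in mRNA decapping, and both rings share Lsm2 to Lsm7. The U1 particle recognizes the 5′ splice site. U2AF binds the polypyrimidine tract and the 3′ splice site, and the SF3a and SF3b complexes of the U2 particle hold the branch point. These are housekeeping functions, needed by every cell that splices mRNA, and several of the genes are targets of cancer mutations or of splicing inhibitors.

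The values were FPKM (mapped fragments scaled by transcript length and by the size of the library). Levels are set side by side between genes on that scaling, and depend on the transcript lengths assumed, which the sources used here do not give. Their sum over all genes was 593634.5 to 630264 per sample, and 13747 to 14357 genes were above 0. Total read counts were not given in the files. Steps in the values of low genes put the depth of the M8 libraries at 0.772 to 0.875 of that of parental replicate 1, and that of the other two parental libraries at 0.948 and 1.07, so depth differed with the line, and its part in the results was not tested. Of 9 colon epithelial markers, only Krt18 (24.5 to 38.4 FPKM) and Krt20 (10.8 to 19.8 FPKM) averaged 1 FPKM or more, and Epcam, Cdh1, Krt19 and Cdx2 were listed at 0 in all 6 samples. All 5 fibroblast markers averaged at least 1 FPKM, with a sum of 198 to 221 FPKM in parental cells and 217 to 230 FPKM in M8. That sum joins genes of both directions. Col1a1 and Pdgfrb were higher in each M8 replicate than in any parental one, Pdgfra and Dcn were lower in each, and Col3a1 overlapped. Of the epithelial markers, Krt20 was lower in each M8 replicate and Krt18 overlapped. The leukocyte and endothelial markers summed to at most 0.0524 FPKM in any sample.

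Promoter stretches of 6 members are shown first, chosen to set genes that were higher in M8 (Lsm5, Snrnp70, Snrpa and Sf3b1) beside genes that were not past the threshold (Lsm8 and Snrpe). Each is the longest stretch upstream of the RefSeq start site, up to 160 bases, that lies outside GENCODE exons and outside the span RefSeq gives the gene, on build GRCm38.p6 and written 5′ to 3′ on the strand of the gene. Capitals mark matches to 6 motifs that were searched on both strands. The GC box, bound by Sp factors, was searched as GGGCGG. The CCAAT box was searched by the letters of its name. For the TATA box the letters TATAAA were used. An E-box, the site of Myc and its relatives, was searched as CACGTG. For factors of the ETS family the search used CCGGAAG. The sixth motif was the palindromic site of NRF1, given in capitals in Snrnp70. No marked match overlaps another. The stretches are Lsm5 at chr6:56704711-56704870 on the minus strand, Lsm8 at chr6:18848419-18848578 on the plus strand, Snrnp70 at chr7:45395743-45395902, Snrpa at chr7:27196272-27196431, Snrpe at chr1:133610292-133610410 and Sf3b1 at chr1:55027502-55027661, the last 4 on the minus strand.
Lsm5: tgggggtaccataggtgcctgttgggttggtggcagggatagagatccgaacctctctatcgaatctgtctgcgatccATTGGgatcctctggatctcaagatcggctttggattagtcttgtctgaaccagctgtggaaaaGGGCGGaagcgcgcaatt
Snrnp70: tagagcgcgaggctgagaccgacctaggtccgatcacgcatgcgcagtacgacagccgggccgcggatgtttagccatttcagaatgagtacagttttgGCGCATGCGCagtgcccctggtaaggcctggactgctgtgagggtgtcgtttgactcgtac
Snrpa: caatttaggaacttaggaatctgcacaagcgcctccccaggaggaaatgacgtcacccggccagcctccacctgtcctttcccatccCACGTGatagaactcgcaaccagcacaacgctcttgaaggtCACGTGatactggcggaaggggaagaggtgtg
Sf3b1: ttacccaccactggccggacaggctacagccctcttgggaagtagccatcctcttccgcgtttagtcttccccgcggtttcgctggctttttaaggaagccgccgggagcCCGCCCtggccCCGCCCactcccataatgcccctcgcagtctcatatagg
Lsm8: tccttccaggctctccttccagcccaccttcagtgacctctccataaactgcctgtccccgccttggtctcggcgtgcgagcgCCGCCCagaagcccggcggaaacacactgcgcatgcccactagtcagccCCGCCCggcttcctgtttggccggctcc
Snrpe: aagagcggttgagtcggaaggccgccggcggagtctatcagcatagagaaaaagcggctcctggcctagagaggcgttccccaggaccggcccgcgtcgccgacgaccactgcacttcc

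The Lsm5 stretch held a reversed CCAAT box 93 bases and a GC box 29 bases upstream of the start. Snrnp70 had the NRF1 match, at 61 bases, and Snrpa had both E-boxes, at 73 and 32 bases. The stretch of Sf3b1 held GC boxes at 73 and 62 bases and that of Lsm8 at 133 and 84 bases. The printed Snrpe stretch held none of the 6 motifs, although its whole promoter window held the ETS letters. Over the whole window of 250 bases before to 50 bases after the start, 28 of the 36 members had a RefSeq promoter. A GC box was found in 19 of the 28 (67.9%), beside 71.4% of the tested genes with a promoter and 38.2% of all promoters. The ETS letters were found in 10 members (35.7%), beside 22.3% and 9.93%. The CCAAT letters were in 12 members (42.9%, beside 43.7% and 41.1%) and TATAAA in 3 (10.7%, beside 8.02% and 15.7%). Snrpa was the single member with an E-box (3.57%, beside 12.2% and 8.09%), and Snrnp70 the single one with the NRF1 letters (3.57%, beside 2.61% and 1.07%). Some matches of the genes shown above are not contained in the printed stretches. These are the ETS letters of Snrpe and Lsm5, a GC box of Snrpa and of Snrnp70, and TATAAA of Snrpa. A match is a description of the letters only. Lsm1, Lsm4, Lsm12, Snrpb, Snrpd1, Sf3b4, Sf3b5 and U2af2 had no entry.

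Across the whole set, 35 of the 36 genes had a mean of at least 1 FPKM and entered the fit over 10597 genes (limma on log2(FPKM + 1)). Past the threshold, a Benjamini-Hochberg adjusted p below 0.1 over all those genes, 21 members were higher in M8 and 0 were lower, beside 21.2% of all tested genes higher and 16.5% lower (37.7% in either direction). At an unadjusted p below 0.05 in the same limma fit, the counts were 22 and 0, beside 2428 higher and 1921 lower of the 10597 tested genes. In 23 members each M8 value was above each parental value, beside 24.8% of all tested genes, and in 0 members was each below, beside 20.4%. As the genes were chosen on this contrast, nothing is read from these counts. The log2 fold change was above 0 in 34 of the 35, with a median of 0.16 and a range of -0.07 to 0.51, beside a median of 0.01 and quartiles of -0.12 and 0.12 over all tested genes. In linear terms the M8 mean was a median of 1.12 times the parental mean, and the highest ratio was 1.43. A fold change of at least 1.5 on the log2(FPKM + 1) scale together with an adjusted p below 0.1 was found in 0 members and, in the higher direction, in 0.396% of all tested genes.

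**Figure D1:**
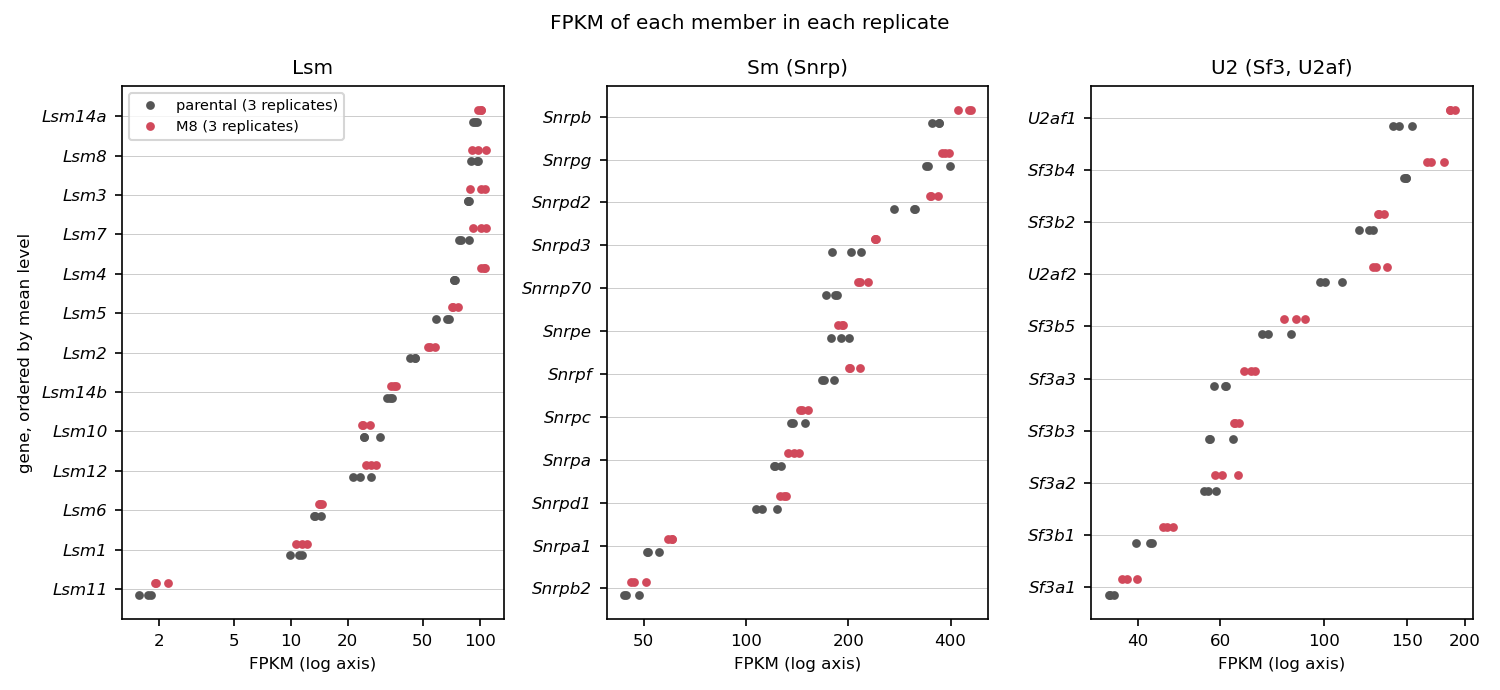
FPKM of each expressed member in every replicate, on a log axis, with 3 grey points for parental cells and 3 red points for M8. Within each panel genes are ordered by mean level, from Lsm11 at 1.86 FPKM up to Snrpb at 404 FPKM, and in most genes the red points lie to the right of the grey ones by a small distance.

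Snrpb, which encodes SmB and its splice variant SmB′, had the highest level of all members, with a mean of 404 FPKM over the 6 samples, higher than 98.1% of tested genes. It was followed by Snrpg (373 FPKM), Snrpd2 (327 FPKM) and Snrpd3 (220 FPKM), which encode other proteins of the same ring. At the low end stood Lsm6 (14.0 FPKM), Lsm1 (11.1 FPKM) and Lsm11 (1.86 FPKM). In the order of the 36 levels there are 35 pairs of neighbours, and the ranges of the replicates overlapped in 17 of them in parental cells, in 11 in M8 and in 7 in both lines. In 14 pairs they overlapped in neither. Snrpn, which encodes the SmN protein known from brain and heart and is imprinted, was listed at 0 in all 6 samples, as was Snurf, which shares its transcript. Of the sequence windows of Snrpn, 19.1% also occurred in other transcripts, mainly of Gm38393, and a listed 0 in files without read counts does not by itself show that the gene is silent. Of the neuronal markers, Tubb3 stood at 3.83 to 5.28 FPKM, and Rbfox3 and Snap25 were listed at 0.

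Among the Sm ring proteins, Snrpb measured 354, 371 and 369 FPKM in the parental replicates and 452, 459 and 421 FPKM in M8. The lowest M8 value was above the highest parental one, with means of 365 ± 9.50 and 444 ± 20.3 FPKM (SD, n = 3 each) and a log2 fold change of 0.28 (SE 0.04). Snrpd3, the gene for SmD3, measured 179, 203 and 218 FPKM in parental cells and 242, 240.3 and 239.7 FPKM in M8, a log2 fold change of 0.27 (SE 0.06). The parental replicates were spread widely and the M8 replicates lay almost on 1 value (SD 1.14 FPKM), without overlap. Snrpf (SmF) was at 170.0, 167 and 182 FPKM in parental cells and at 217, 201 and 202 FPKM in M8, a log2 fold change of 0.26 (SE 0.05). Snrpd2 (SmD2) was at 272, 312 and 314 FPKM and at 351, 347 and 368 FPKM, a log2 fold change of 0.25 (SE 0.06), and Snrpd1 (SmD1) at 111, 107 and 123 FPKM and at 131, 129 and 126 FPKM, a log2 fold change of 0.18 (SE 0.05). These 5 ring genes were past the threshold, and in each the M8 replicates stood above the parental ones.

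The remaining ring genes did not pass. Snrpg (SmG) measured 343, 338 and 399 FPKM in parental cells and 397, 384 and 377 FPKM in M8, with parental replicate 3 above all 3 M8 values, and its log2 fold change of 0.11 (SE 0.06) turned to -0.03 under quantile normalization. Without parental replicate 3 it was 0.18 and past the threshold. Snrpe (SmE) measured 200.3, 189.9 and 178 FPKM in parental cells and 191, 187 and 193 FPKM in M8. The M8 values lay inside the parental range, with a log2 fold change of 0.01 (SE 0.05) whose sign changed in 5 of the 16 alternative fits. The median over the 7 expressed ring genes was 0.25. Summed over the 7, ring transcripts stood at 1629, 1687 and 1782 FPKM in parental cells and at 1981, 1948 and 1927 FPKM in M8, a ratio of the means of 1.15. Transcript levels within the ring spanned 3.18-fold to 3.55-fold in a sample. The lowest was Snrpd1 in all 6 samples, and the highest was Snrpb in 5 of them and Snrpg in parental replicate 3.

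Of the proteins particular to U1, Snrnp70 encodes U1-70K, which contacts SR proteins at the 5′ splice site. It measured 172, 183 and 186 FPKM in parental cells and 228, 213 and 216 FPKM in M8, without overlap, a log2 fold change of 0.28 (SE 0.04). Snrpa, for the A protein of U1, measured 121, 122 and 126 FPKM and then 143, 138 and 133 FPKM, also without overlap, a log2 fold change of 0.17 (SE 0.04). Snrpc, for the C protein, was at 138, 135 and 149 FPKM in parental cells and at 144, 147 and 152 FPKM in M8, where the groups overlapped and the log2 fold change of 0.07 (SE 0.05) did not pass. It turned to -0.03 under quantile normalization and was 0.11 and past the threshold without parental replicate 3. The ratio of Snrnp70 to Snrpc was thus 1.28 ± 0.0606 in parental cells and 1.49 ± 0.0867 in M8 (SD, n = 3 each). It was higher in each M8 replicate than in any parental one, and was not tested. The U2 particle has its own pair, Snrpa1 (the A′ protein) and Snrpb2 (the B″ protein), which bind U2 RNA together. Snrpa1 measured 50.9, 51.4 and 55.3 FPKM in parental cells and 58.9, 60.7 and 60.3 FPKM in M8, a log2 fold change of 0.19 (SE 0.04) without overlap. Its partner Snrpb2 measured 48.3, 44.2 and 43.7 FPKM and then 45.8, 46.7 and 50.7 FPKM, with overlap and a log2 fold change of 0.07 (SE 0.06) that did not pass.

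Lsm4, whose protein sits in both Lsm rings, had the largest difference of all members. It measured 73.8, 72.7 and 73.2 FPKM in parental cells and 107, 105 and 102 FPKM in M8. The replicates of each line lay close together and far from those of the other line, with means of 73.2 ± 0.542 and 105 ± 2.76 FPKM (SD, n = 3 each). The log2 fold change was 0.51 (SE 0.04), a ratio of 1.43, larger than that of 99.2% of tested genes. The gene lies at chr8:70673231-70678752 on the plus strand (GRCm38), and none of its read-length windows occurred in another annotated transcript.

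Of the other shared ring genes, Lsm2 measured 43.0, 45.6 and 45.2 FPKM in parental cells and 57.8, 54.8 and 53.3 FPKM in M8, a log2 fold change of 0.30 (SE 0.05). Lsm7 measured 80.1, 77.4 and 87.4 FPKM and then 108, 92.2 and 102 FPKM, also 0.30 (SE 0.07). In both genes the 2 lines did not overlap, although the M8 replicates of Lsm7 were spread over a wider range. Lsm3 was at 86.7, 86.9 and 88.0 FPKM in parental cells and at 101.7, 107 and 88.9 FPKM in M8, a log2 fold change of 0.18 (SE 0.06), and its lowest M8 value, in replicate 3, was barely above the highest parental value. Lsm5 was at 68.5, 58.6 and 67.5 FPKM and then at 76.6, 71.2 and 72.6 FPKM, a log2 fold change of 0.18 (SE 0.06) without overlap. Lsm6 was the exception, at 13.2, 13.3 and 14.4 FPKM in parental cells and at 14.2, 14.0 and 14.6 FPKM in M8, with overlap and a log2 fold change of 0.06 (SE 0.05) that did not pass. It was also the lowest of the 6 shared ring genes in each sample, 6.12-fold to 7.65-fold below the highest, which was Lsm3 or Lsm7. Summed over Lsm2 to Lsm7, the levels were 365, 355 and 376 FPKM in parental cells and 466, 444 and 433 FPKM in M8, a ratio of the means of 1.23.

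The 2 genes that decide which Lsm ring forms did not pass. Lsm8, of the nuclear ring, measured 89.7, 96.9 and 98.5 FPKM in parental cells and 109, 90.7 and 98.2 FPKM in M8, with the lines intermixed and a log2 fold change of 0.06 (SE 0.07) that changed sign in 2 of the 16 alternative fits. Lsm1, of the cytoplasmic ring, measured 11.4, 9.82 and 11.0 FPKM and then 12.1, 11.5 and 10.6 FPKM, a log2 fold change of 0.08 (SE 0.07), again with overlap. The ratio of Lsm1 to Lsm8 was 0.113 ± 0.0131 in parental cells and 0.115 ± 0.00977 in M8 (SD, n = 3 each). It overlapped between the lines, and the exact 2-sided permutation test of such a ratio cannot go below p = 0.1 with 3 samples against 3. In FPKM, Lsm8 was thus far above Lsm1 in each of the 6 samples, at longest coding transcripts of 807 and 2663 bases.

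Lsm10 and Lsm11 replace SmD1 and SmD2 in the U7 particle, which processes the 3′ ends of replication-dependent histone mRNAs. Lsm10 measured 24.2, 24.4 and 29.4 FPKM in parental cells and 23.6, 24.0 and 26.2 FPKM in M8. It was the single member with a log2 fold change below 0, at -0.07 (SE 0.08), with overlapping groups, and without parental replicate 3 it turned to 0.02. Lsm11 measured 1.57, 1.75 and 1.80 FPKM and then 1.90, 2.21 and 1.92 FPKM, with each M8 value above the parental ones and a log2 fold change of 0.15 (SE 0.09) that did not pass and that is understated at so low a level by the added 1 FPKM. It passed after quantile normalization, at 0.24, and without the variance trend. The ratio of Lsm10 to Lsm11 was 15.2 ± 1.21 in parental cells and 12.3 ± 1.39 in M8 (SD, n = 3 each). It was lower in each M8 replicate than in any parental one, but rests on Lsm11 values of 1.57 to 2.21 FPKM. The ratio was not tested, and the exact 2-sided permutation test could not go below p = 0.1 here either. The Lsm proteins outside the rings also did not pass. Lsm14a and Lsm14b, which act in translational repression and P-bodies, had log2 fold changes of 0.09 (SE 0.04) and 0.07 (SE 0.04), with levels of 92.4 to 102 FPKM and of 32.4 to 36.1 FPKM over the 6 samples. Lsm14a did not overlap between the lines and Lsm14b did. Lsm12 measured 21.2, 23.2 and 26.6 FPKM in parental cells and 24.9, 26.6 and 28.3 FPKM in M8, with overlap and a log2 fold change of 0.16 (SE 0.08). Without parental replicate 3 it was 0.25 and past the threshold, and it also passed with the replicate number as a block.

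The 2 subunits of U2AF had the largest differences after Lsm4. U2af1, which encodes the small subunit that reads the AG of the 3′ splice site, measured 144, 140.5 and 154 FPKM in parental cells and 185, 191 and 186 FPKM in M8. U2af2, which encodes the large subunit that binds the polypyrimidine tract, measured 109, 97.8 and 100.4 FPKM and then 136, 129 and 127 FPKM. In both genes the lowest M8 value was well above the highest parental value. The means were 146 ± 6.90 and 187 ± 2.99 FPKM for U2af1 and 102 ± 5.82 and 131 ± 4.80 FPKM for U2af2 (SD, n = 3 each), and the log2 fold changes were 0.35 (SE 0.04) and 0.35 (SE 0.05). Their levels kept to 1 ratio, since U2af1 was 1.43 times U2af2 in both lines, with SDs of 0.103 and 0.0629.

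In SF3b, which holds the branch point adenosine, Sf3b4 measured 148, 149 and 149 FPKM in parental cells and 180.2, 169 and 165 FPKM in M8, a log2 fold change of 0.20 (SE 0.04). Sf3b1, the largest subunit and a frequent target of mutation in human leukemias, measured 42.5, 42.9 and 39.7 FPKM and then 47.6, 45.2 and 46.1 FPKM, a log2 fold change of 0.15 (SE 0.05). Neither overlapped between the lines. Sf3b3 was at 63.9, 56.7 and 57.2 FPKM in parental cells and at 64.4, 65.7 and 64.2 FPKM in M8, a log2 fold change of 0.13 (SE 0.05), with parental replicate 1 almost at the M8 level. Sf3b3 did not pass with the replicate block. Sf3b5 was at 85.1, 75.8 and 73.7 FPKM and then at 91.1, 87.2 and 81.9 FPKM, a log2 fold change of 0.15 (SE 0.06), past the threshold although parental replicate 1 was above M8 replicate 3. Sf3b2 showed the reverse, since its values of 119, 127 and 125 FPKM and of 131, 134 and 130.1 FPKM did not overlap but its log2 fold change of 0.09 (SE 0.04) did not pass.

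SF3a joins the U2 particle to SF3b. Sf3a3 measured 58.2, 61.5 and 61.7 FPKM in parental cells and 69.6, 71.1 and 67.3 FPKM in M8, without overlap and with a log2 fold change of 0.20 (SE 0.04). Sf3a1 measured 34.9, 34.6 and 35.6 FPKM and then 39.9, 38.0 and 37.1 FPKM, a smaller log2 fold change of 0.12 (SE 0.04), also without overlap. Sf3a2 measured 58.8, 55.3 and 56.4 FPKM and then 65.4, 60.6 and 58.4 FPKM, where M8 replicate 3 was below parental replicate 1 and the log2 fold change of 0.11 (SE 0.05) did not pass. It was past the threshold without parental replicate 1 (0.13) or without M8 replicate 3 (0.15). Across the 10 U2 genes the levels ranged from those of Sf3a1, at a mean of 36.7 FPKM, to those of U2af1, at 167 FPKM.

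**Figure D2:**
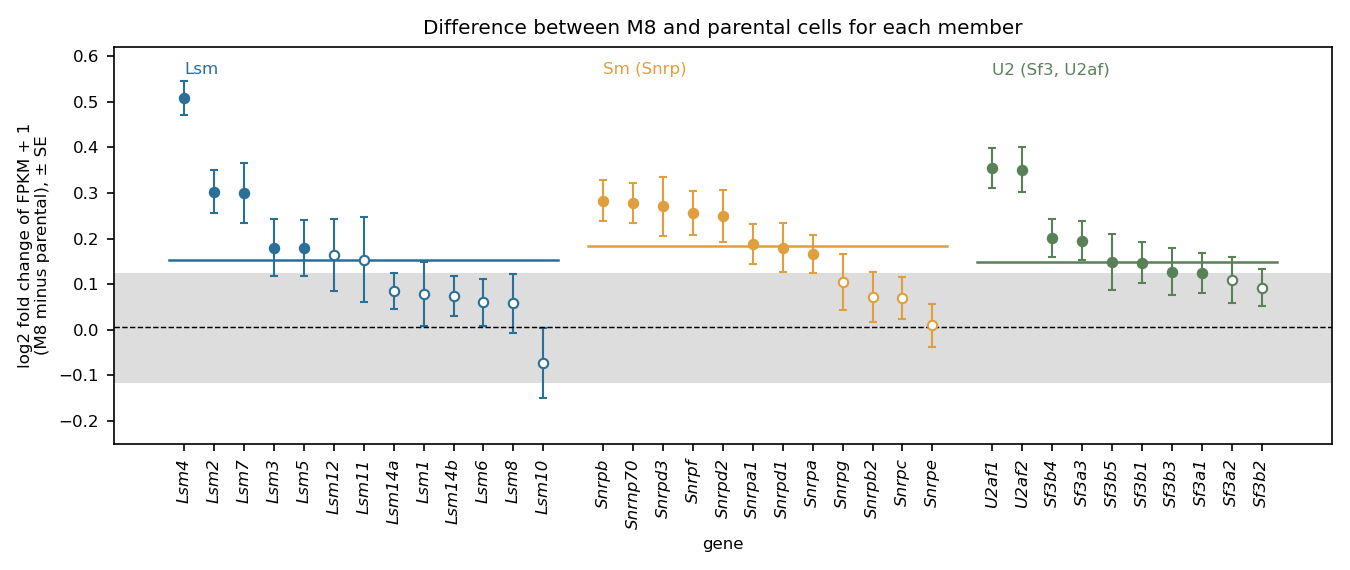
Log2 fold change of each tested member, M8 minus parental on log2(FPKM + 1), with its SE as a bar, grouped into Lsm, Sm and U2. Filled points are past the threshold, the solid line is the group median (0.15, 0.18 and 0.15), and the band and dashed line are the quartiles and median of all 10597 tested genes. Lsm4 stands apart at 0.51 and Lsm10 is the one gene below 0.

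Between the 3 groups, 5 of 13 Lsm genes, 8 of 12 tested Sm genes and 8 of 10 U2 genes were past the threshold, all higher in M8, beside 21.2% of all tested genes. The counts were 4, 8 and 4 on TPM, 4, 6 and 4 after quantile normalization, 5, 8 and 5 after upper-quartile scaling and 2, 5 and 4 without a filter. Leaving out M8 replicate 1 gave 3 for Lsm and 4 for U2, leaving out parental replicate 2 gave 3 and 5, and leaving out M8 replicate 2 gave 5 for U2. Each M8 value was above each parental one in 7 of the 13 Lsm, 8 of the 12 Sm and 8 of the 10 U2 genes, beside 24.8% of all tested genes. The medians of the log2 fold change were 0.15 for Lsm (range -0.07 to 0.51), 0.18 for Sm (0.01 to 0.28) and 0.15 for U2 (0.09 to 0.35), and the difference between groups was not tested, because genes are not replicates. After quantile normalization the medians were 0.10, 0.10 and 0.069, and that of all members was 0.09. The Lsm genes past the threshold were all among Lsm2 to Lsm7, whose median was 0.24. The summed level of the 13 Lsm genes was 638, 640 and 673 FPKM in parental cells and 774, 733 and 733 FPKM in M8. For the 13 Sm genes the sum was 2159, 2223 and 2342 FPKM and then 2601, 2553 and 2538 FPKM, and for the 10 U2 genes 864, 842 and 853 FPKM and then 1011, 991 and 963 FPKM. The lines did not overlap in any of the 3 sums, and the ratios of the means were 1.15, 1.14 and 1.16. As a share of all FPKM in a sample, the members together took 0.612% ± 0.00848 in parental cells and 0.685% ± 0.00924 in M8 (SD, n = 3 each).

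The replicates of a line differed little in most members. The coefficient of variation had a median of 4.72% in parental cells, from 0.404% for Sf3b4 to 11.6% for Lsm12, and of 3.70% in M8, from 0.475% for Snrpd3 to 9.39% for Lsm3. Over all tested genes the medians were 5.62% and 4.42%. The lowest parental value was in replicate 1 for 18 of the 35 genes, in replicate 2 for 13 and in replicate 3 for 4. The highest M8 value was in replicate 1 for 19, in replicate 2 for 9 and in replicate 3 for 7. These counts have no counterpart over all genes here, and the summed FPKM of all genes was also lowest in parental replicate 1. As a share of all FPKM, the members took 0.617%, 0.603% and 0.618% in the parental replicates and 0.696%, 0.680% and 0.680% in M8. On that share parental replicate 1 was not the lowest. Relative to the parental mean, the median log2 level of the members was -0.03, -0.02 and 0.03 in the parental replicates and 0.20, 0.17 and 0.14 in M8. Without M8 replicate 1, 14 members were past the threshold in place of 21, and without parental replicate 2 it was 15. Calls over all tested genes fell as well. Higher genes went from 2250 to 1591 and 1912 in these fits, and lower genes from 1745 to 1142 and 1333.

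Of the 35 tested members, 25 had a mean of at least 50 FPKM. Among all tested genes with a mean of at least 50 FPKM, 39.8% of 1888 were higher and 10.1% lower, with a median log2 fold change of 0.08, and 18 of the 25 members at that level were higher. At 100 FPKM or more the share was 41.7% of 909 genes, and 10 of 14 members were higher. By length, genes whose longest coding transcript was at most 1000 bases were higher in 22.1% of cases (6 of 9 members), those of 1000 to 2000 bases in 26.5% (9 of 11), those of 2000 to 4000 bases in 23.0% (3 of 11) and longer ones in 15.9% (3 of 4). The median length was 1129 bases for the Lsm, 1204 bases for the Sm and 2717 bases for the U2 members, beside 3090.5 bases for all tested genes. The part of expression level in the members' differences was not tested.

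**Figure D3:**
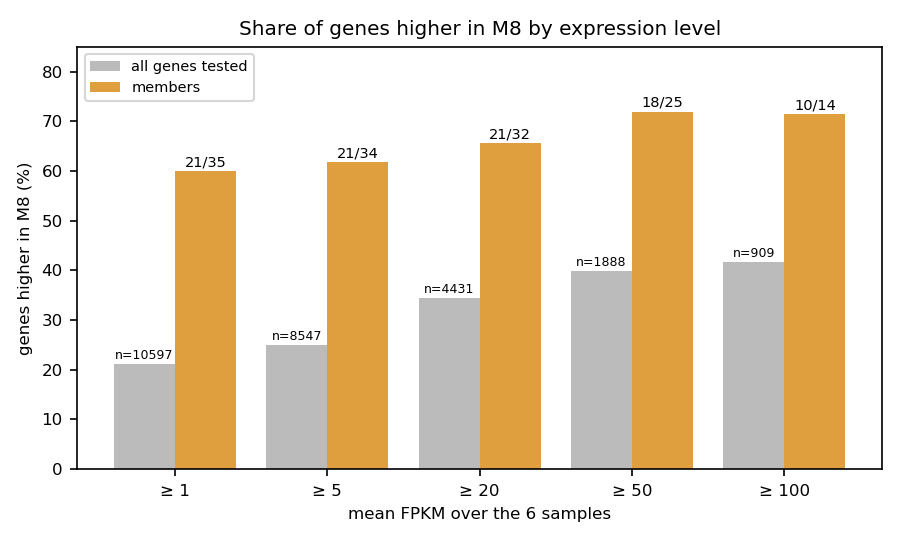
Share of all tested genes past the threshold and higher in M8, by the lowest mean FPKM admitted, beside the members at the same level. The share over all genes goes from 21.2% at 1 FPKM to 41.7% at 100 FPKM, where 10 of 14 members were higher.

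Of the 4 other scalings, median centring kept all 21 member calls and the other 3 lowered the count. Of the 21 members, 16 kept the call on TPM, 13 after quantile normalization, where Lsm11 was added, and 18 after upper-quartile scaling, and 0 members were lower under each. Over all genes, 2250 were higher and 1745 lower. These counts became 1820 and 1773 after quantile normalization, and more genes were lower than higher on TPM (1658 and 2209) and after upper-quartile scaling (1848 and 2154). Over the 16 alternative fits, 10 of the 21 were past the threshold in every one, namely Lsm2, Lsm4, Snrnp70, Snrpa1, Snrpb, Snrpf, Sf3a3, Sf3b4, U2af1 and U2af2. The most easily lost were Sf3b3, past it in 5 of the 16, and Sf3b5, in 7. Leaving out 1 library was enough to lose 7 members. Sf3b1 was lost without M8 replicate 1 alone, and Snrpd1 without that library or without parental replicate 2. Each of these 2 libraries also decided Lsm3, Lsm5, Sf3a1, Sf3b3 and Sf3b5. M8 replicate 2 further decided Lsm3, Sf3a1, Sf3b3 and Sf3b5, M8 replicate 3 Lsm5 and Sf3b3, parental replicate 1 Lsm3, and parental replicate 3 Sf3b3 and Sf3b5.

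Several members share sequence with other annotated transcripts, so reads could be split between them, and how the counting treated such reads and the strand is not given in the sources used here. For Snrpf, 78.1% of the windows of 1 read length also occurred in another transcript, mostly of Ccdc38 on the opposite strand, which itself stood at 0.104 FPKM. U2af1 shared 39.1% of its windows, mainly with processed pseudogenes, Sf3b4 36.6% with Gm7935, Lsm5 21.3% with Gm7846, Lsm7 18.5% with Gm10146 and Snrpg 13.7% with Gm8186. Sf3a2 shared 13.9% with Plekhj1, a gene on the opposite strand at 29.8 FPKM. The values of these genes are uncertain to that extent. No window was shared for Lsm2, Lsm4, Snrnp70, Snrpb, Sf3a1, Sf3a3, Sf3b1 and Sf3b5, which were past the threshold.

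The wider splicing machinery was covered by 10 lists of genes that are not members, 152 of them tested, of which 64 were higher and 6 lower in M8 (limma, Benjamini-Hochberg adjusted p below 0.1), beside 21.2% and 16.5% of all tested genes, with a median log2 fold change of 0.11. The count of lower genes was 10 to 12 under upper-quartile, TPM and quantile scaling. These lists too were written with earlier results of these data known, so nothing is read from their counts. The genes named have the largest differences past the threshold in each list and direction, and their p-values carry that choice. Among 14 factors that work with U2, 7 were higher and 0 lower (at an unadjusted p below 0.05 also 7 and 0), with a median of 0.10. The RNA helicase gene Ddx39b, which recruits U2 to the branch point, rose from 189, 212 and 201 FPKM to 260.0, 259.6 and 249 FPKM, a log2 fold change of 0.35 (SE 0.05, adjusted p = 0.00124). Phf5a, a small SF3b subunit, rose by 0.26 on the log2 scale (SE 0.05, adjusted p = 0.00464). Of 10 U1-associated factors 2 were higher and 1 lower. Of the higher ones, 1 was left on TPM, without a filter, without parental replicate 2 and without M8 replicate 1. Prpf40b fell by 0.42 (SE 0.07, adjusted p = 0.00309), from 14.9, 14.7 and 17.4 FPKM to 10.8, 11.5 and 12.0 FPKM.

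In the U4/U6.U5 tri-snRNP, which carries the Lsm2 to Lsm8 ring on U6, 13 of 22 proteins were higher and 0 lower (14 and 0 at an unadjusted p below 0.05 in limma), with a median of 0.14. The counts were 8 higher and 1 lower on TPM, 7 and 3 after quantile normalization, and 8 and 0 without a filter. Prpf3, which binds U4/U6, rose by 0.35 (SE 0.06, adjusted p = 0.00306) and the cyclophilin Ppih by 0.30 (SE 0.07, adjusted p = 0.0146). Of 25 genes of the Prp19 complex and catalytic steps, 7 were higher and 0 lower (also 7 and 0 at an unadjusted p below 0.05 in limma), with a median of 0.06, led by Ppil1 at 0.34 (SE 0.05, adjusted p = 0.00207). Here 3 were higher and 1 lower on TPM and after upper-quartile scaling, 4 and 1 after quantile normalization, and 2 were higher without a filter, without parental replicate 2 or without M8 replicate 1, and 4 without M8 replicate 2. The minor spliceosome, which uses the same Sm and SF3b proteins for a small class of introns, had 2 of 10 genes higher and 2 lower, with a median of -0.01. The counts were 1 and 3 on TPM and after upper-quartile scaling, 1 and 2 after quantile normalization, with the replicate block or without the variance trend, and 0 and 1 without a filter. Leaving out 1 library gave 1 higher in each case but parental replicate 2, and 1 lower without parental replicate 1, M8 replicate 2 or M8 replicate 3. Zrsr2, which reads its 3′ splice site, rose by 0.30 (SE 0.07, adjusted p = 0.0115) and Snrnp48, a protein of the U11/U12 particle, fell by 0.32 (SE 0.06, adjusted p = 0.00407).

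Of 20 genes that assemble Sm rings or move small nuclear RNAs, 7 were higher and 1 lower, with a median of 0.09. The lower count was 3 on TPM, 2 after quantile normalization and after upper-quartile scaling, and 0 without a filter, where Snupn was lost. Wdr77, a partner of the Prmt5 enzyme that methylates Sm proteins, rose by 0.34 (SE 0.07, adjusted p = 0.0057), and the cap-binding gene Ncbp2 rose by 0.39 (SE 0.05, adjusted p = 0.000979). Snupn, the import adaptor that brings assembled particles back to the nucleus, fell by 0.38 (SE 0.09, adjusted p = 0.0166), from 12.7, 10.9 and 14.0 FPKM to 8.91, 8.74 and 10.5 FPKM. Among 9 decapping partners of the cytoplasmic Lsm ring, 0 were past the threshold in limma, 1 had an unadjusted p below 0.05 and the median was 0.02. Without parental replicate 3, or with a filter at a mean of 5 FPKM, 1 was past the threshold. Of 6 tested partners of the U7 particle in histone mRNA processing, 2 were higher and 0 lower (also 2 and 0 at an unadjusted p below 0.05 in limma), with Cpsf2 at 0.16 (SE 0.06, adjusted p = 0.0601), a call lost without parental replicate 2, M8 replicate 1 or M8 replicate 2. In each of these fits, on TPM, after upper-quartile scaling and without a filter, 0 of the U7 partners were higher, and after quantile normalization 1 was higher and 1 lower. Of 12 SR proteins 8 were higher and 1 lower (median 0.22), with Srsf2 up by 0.43 (SE 0.04, adjusted p = 0.000262), Tra2a up by 0.43 (SE 0.05, adjusted p = 0.00056) and Srsf5 down, at -0.15 (SE 0.04, adjusted p = 0.0128). Of 24 hnRNP genes 16 were higher and 1 lower (median 0.18), with Hnrnpd up by 0.41 (SE 0.05, adjusted p = 0.000979) and Hnrnph1 at -0.10 (SE 0.04, adjusted p = 0.0939), a call lost without replicate 1 or 2 of either line, with the replicate block, without the variance trend and without a filter.

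**Figure D4:**
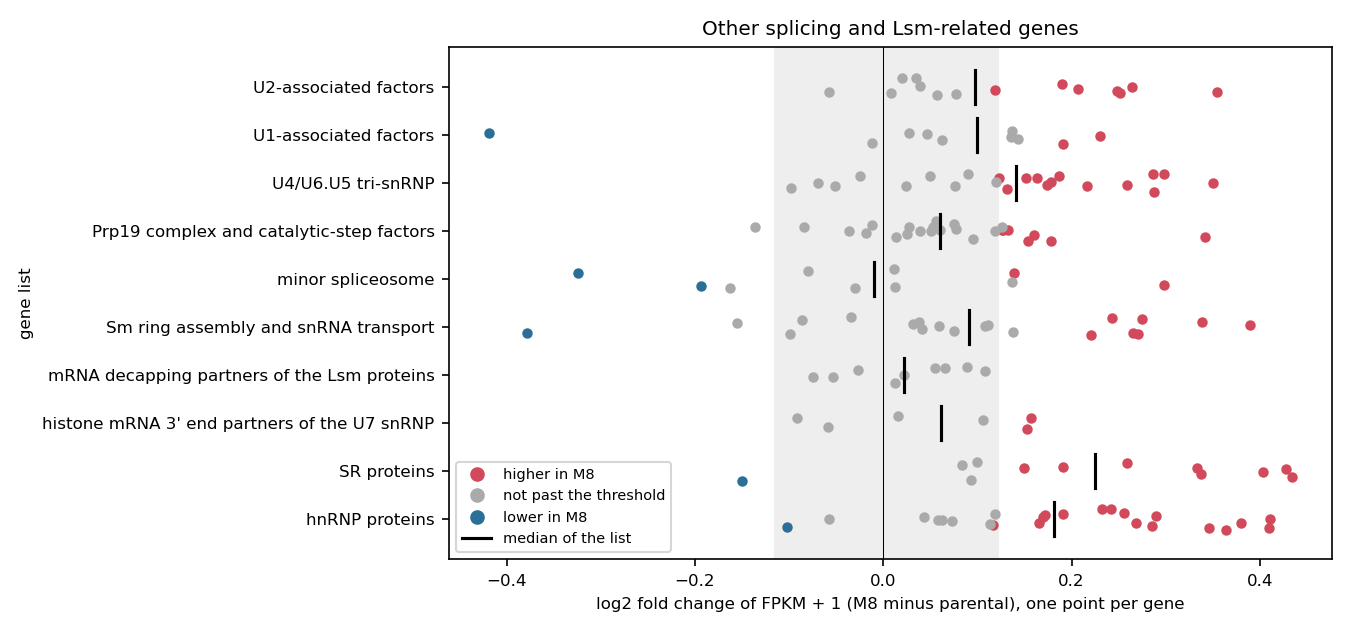
Log2 fold change, M8 minus parental on log2(FPKM + 1), of each gene in 10 lists of other splicing and Lsm-related genes, with the band marking the quartiles of all tested genes (-0.12 and 0.12). SR and hnRNP genes have the highest medians, 0.22 and 0.18, and the minor spliceosome and decapping lists lie near 0, at -0.01 and 0.02.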

How the data were processed

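RNA from CT26.mMR1 parental cells and from M8 (3 replicates each) was sequenced from stranded mRNA libraries. The authors mapped the reads to mm10 and deposited FPKM values per gene symbol; the submitters' processing notes name TopHat2 2.1.1, Bowtie2 2.2.8, SAMtools 0.1.18 and Cuffdiff 2.2.1, while the gene annotation is not given in the sources used here. The study's own differential test used read counts, so it was not repeated.

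Groups were taken from the sample titles. A filter kept 10597 of 24346 genes, those averaging 1 FPKM or more. The test was limma 3.58.1 (R 4.3.3), fitted to log2(FPKM + 1) with moderated variances that follow a mean-variance trend and no covariates, and its p-values were adjusted by Benjamini-Hochberg with a threshold of 0.1. The pseudocount of 1 understates the change of low genes. The script was tested on simulated data. Library depth was compared through the steps in FPKM of low genes, and no counting interval can be given beside an FPKM value.

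The members and all gene lists were chosen with earlier results of these data known. The text names the 36 members, in each other list up to 2 genes per direction with the largest log2 fold change past the threshold (not all of these are named), and markers. Snu13 was matched through a RefSeq synonym, 154 of 155 other listed symbols were matched, and 152 passed the filter. Promoters and gene positions came from RefSeq (GRCm38.p6), and exons, transcript lengths and shared windows of 1 read length from GENCODE transcripts on GRCm38. Python 3.11.15, pandas 2.3.3 and matplotlib 3.10.9 were used.

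The alternatives changed the pseudocount (0.1 or 0.5), the filter (none, or 5 FPKM), the scaling (median centring, TPM, quantile or upper-quartile) or the call (no variance trend, a threshold of 0.05, or at least 1.5-fold), added a replicate block, or dropped 1 replicate at a time.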

Additional observations from a re-analysis of the deposited data

How the results depend on the processing

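Over all alternatives 0 members were lower in M8, and none of the 21 members past the threshold changed sign. Without a filter, 1284 genes were higher and 898 lower, 11 members were higher, and 40 of the other splicing genes were higher and 3 lower. On TPM, 11 of the other splicing genes were lower and the median of the Sm members was 0.15, at a split of all calls of 1658 higher and 2209 lower. Quantile normalization gave 12 lower among the other splicing genes and medians of 0.10 for Lsm, 0.10 for Sm and 0.069 for U2 (0.09 for all members), at a split of 1820 and 1773. Upper-quartile scaling gave 10 lower among the other splicing genes, at a split of 1848 and 2154. With a fold change of at least 1.5, 42 genes were higher and 74 lower, with 0 members and 0 other splicing genes in either direction. The cause was not tested.

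Leaving out each replicate in turn gave 1591 to 2100 genes higher and 1142 to 1681 lower, 14 to 22 members higher, 48 to 66 other splicing genes higher and 4 to 6 lower. The count of higher members was lowest without M8 replicate 1 (14) and without parental replicate 2 (15). Medians were then 0.11 to 0.18 for Lsm, 0.17 to 0.23 for Sm, 0.12 to 0.18 for U2 and 0.15 to 0.19 for all members. Same-numbered samples had correlations of 0.10, -0.11 and -0.03 in their deviations from the group means, and differently numbered ones -0.13 to 0.18. No label says whether the numbers pair the samples, and so few correlations cannot decide it. The replicate block gave 2171 genes higher and 1688 lower, and 61 and 6 other splicing genes. It gave 21 members higher and 0 lower, with Sf3b3 lost and Lsm12 gained.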
